A study of Mus musculus with 12 samples.

Results

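The genes described here carry glucose into cells and break it down to lactate. They are the glucose transporter *Slc2a1* and the enzymes *Hk1*, *Hk2*, *Pfkp*, *Gapdh*, *Pgk1*, *Eno1*, *Eno1b*, *Pkm* and *Ldha*, 10 of the 21247 genes in the count table, taken by gene symbol from a list. RNA-seq was performed on periocular skin of 6-week-old BALB/c mice, with 4 libraries labelled ft/ft and 4 labelled ft/ftMyD88-/-. Mice of both groups carried the ft/ft genotype, a loss-of-function point mutation in filaggrin, the protein that packs keratin in the outer epidermis, without the matted mutation that came with the original strain. The mice of the second group were in addition MyD88 deficient (MyD88-/-), from an in-house cross, with a germline allele that is not limited to skin or to a cell type. MyD88 is the adaptor through which Toll-like and IL-1 family receptors signal. Wild-type libraries were not analysed here.

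Glycolysis begins when a transporter of the GLUT family lets glucose into the cell and a hexokinase traps it by phosphorylation. Phosphofructokinase commits the sugar to breakdown, GAPDH, phosphoglycerate kinase, enolase and pyruvate kinase carry the carbon to pyruvate, and lactate dehydrogenase turns pyruvate into lactate. Epidermal keratinocytes are known to live largely from glycolysis, many of its genes respond to hypoxia through HIF1, and skeletal muscle uses its own isoforms of several of these enzymes.

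The ft/ft libraries held 18941705 to 29255129 counts and those labelled ft/ftMyD88-/- held 15802957 to 27037997. The 10 genes took 0.388% to 0.422% and 0.342% to 0.414% of these. *Myd88* itself, the gene of the knockout, was no lower under that label (41.2 ± 7.29 against 30.7 ± 4.74 CPM, SD, n = 4 each, edgeR adjusted p = 0.0484), so every direction below rests on the labels. *Xist* was at 34.6 to 66.8 CPM in the libraries labelled ft/ftMyD88-/- and at most 0.0429 in ft/ft, and the Y-linked *Ddx3y* at no more than 0.482 against 54.2 to 73.2, whereas the labels give females throughout. Genotype and sex therefore cannot be told apart in any comparison, including that of the X-linked *Pgk1*. Keratinocyte markers were abundant in every library, with 5 genes of basal keratinocytes summing to 8000 CPM or more. The 4 libraries of each label stand for 4 mice.

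Of the 10 genes, *Eno1b* was higher in the libraries labelled ft/ftMyD88-/-, *Hk1*, *Gapdh*, *Eno1* and *Pkm* were lower, and the other 5 did not pass the test (edgeR's quasi-likelihood test, Benjamini-Hochberg adjusted p under 0.05 over 20454 genes). The same test called 23.3% of all genes tested, 10.9% higher and 12.3% lower. The 5 called genes were also the 5 whose groups did not overlap, where 26.7% of all genes tested did not. The median log2 fold change of the 10 was -0.13, beside 0.01 over all genes tested, and their summed level was 4213 to 4491 CPM in ft/ft, against 3235 to 3860 CPM in the libraries labelled ft/ftMyD88-/-. In bulk skin, fewer cells of a type and less RNA per cell cannot be told apart.

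**Figure D1:**
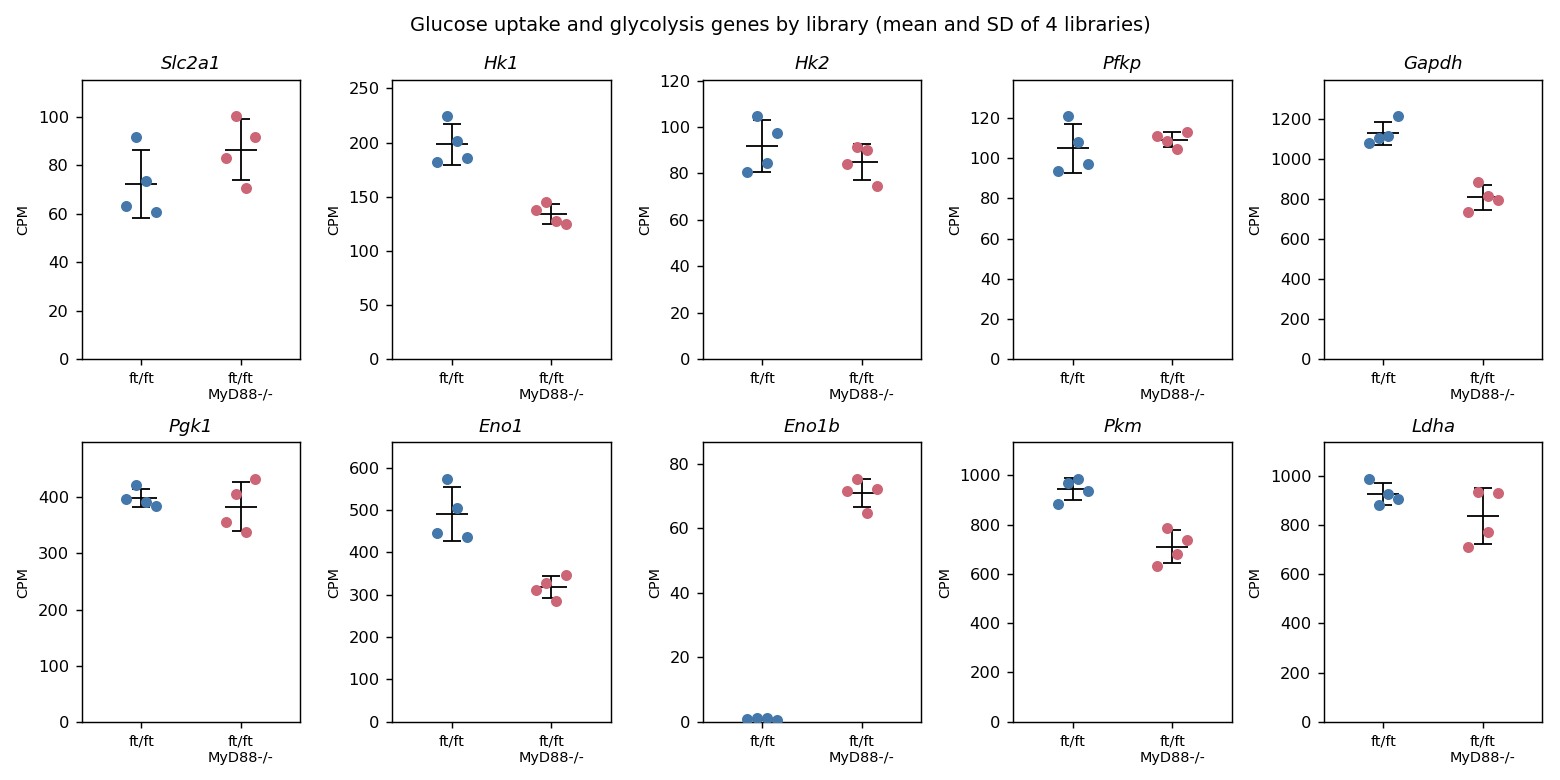
CPM (counts scaled to a common library size with TMM factors, linear axes from 0) of the 10 genes in each library, with points for the 4 libraries of each label and bars for the mean and SD. *Hk1*, *Gapdh*, *Eno1* and *Pkm* lie lower and *Eno1b* higher in the libraries labelled ft/ftMyD88-/- without overlap, and the other 5 overlap.

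Counts were also taken per kilobase of the longest protein-coding transcript, which corrects for length but not for sequence that a gene shares with others. That correction assumes reads from along the whole transcript, as in the TruSeq libraries of the study's methods. GEO's labels give another protocol, and the difference could not be settled. Of windows as long as a read, 84.5% of *Eno1b*, 82.5% of *Gapdh*, 72.2% of *Eno1* and 68.0% of *Pgk1* also occurred in other genes. *Hk2* had no such windows. Reads of shared windows may be missing from the counts, so the order below is that of counted reads and may differ from that of transcripts. On this scale *Gapdh* was the highest of the 10 in ft/ft, at 793 ± 41.8 CPM per kb (SD, n = 4). *Ldha* followed at 510.2 ± 25.3 and *Pkm* at 388 ± 18.8. *Eno1* at 242 ± 31.2 and *Pgk1* at 219 ± 8.73 were closer to each other than their spread. The transporter and the entry enzymes lay about an order of magnitude lower, *Hk1* at 46.3 ± 4.53, *Pfkp* at 25.3 ± 2.98, *Slc2a1* at 22.1 ± 4.35 and *Hk2* at 16.7 ± 2.02. The range of *Slc2a1* within 1 SD overlapped that of *Pfkp* and that of *Hk2*. *Eno1b* was last, at 0.464 ± 0.136. In the libraries labelled ft/ftMyD88-/-, *Gapdh* (568 ± 42.7) and *Ldha* (461 ± 62.5) still led, *Pgk1* (210.0 ± 23.9) stood above *Eno1* (157 ± 12.9), *Slc2a1* (26.5 ± 3.88) and *Pfkp* (26.4 ± 0.864) were nearly level, and *Eno1b* stood at 39.6 ± 2.48, above *Hk1* (31.3 ± 2.18).

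The promoters of these genes are shown because glycolysis genes are a textbook group of HIF1 targets, and HIF1 binds the core letters ACGTG or GCGTG. In the 250 bases before the transcript start (RefSeq, GRCm38.p6, 14 promoters of 9 of the genes, with no entry for *Eno1b*), 12 of the 14, or 85.7%, held a core on either strand, and each of the 9 genes had a promoter that did. Over 32851 promoters of 27025 genes the share of promoters was 38.6%, with ACGTG in 16.6% and GCGTG in 28.2%, and no share by gene was taken. The *Eno1* promoters at chr4:150236947-150237196 and chr4:150236974-150237223 overlap and hold the same cores, so the 14 are not all separate sequences. Capitals below mark each core, on the printed strand or as its reverse complement, which reads CACGT for the first core and CACGC for the second. The promoters printed are those of 3 enzymes that fell (*Hk1*, *Gapdh* and *Eno1*) and of *Slc2a1* and *Ldha*, which did not pass, so that both outcomes can be read side by side.
Slc2a1, chr4:119108495-119108744, plus strand: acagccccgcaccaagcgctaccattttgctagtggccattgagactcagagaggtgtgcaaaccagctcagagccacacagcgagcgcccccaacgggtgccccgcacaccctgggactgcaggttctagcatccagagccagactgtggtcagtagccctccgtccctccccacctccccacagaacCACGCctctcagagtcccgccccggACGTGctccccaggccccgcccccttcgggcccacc
Hk1, the promoter at chr10:62340422-62340671, minus strand: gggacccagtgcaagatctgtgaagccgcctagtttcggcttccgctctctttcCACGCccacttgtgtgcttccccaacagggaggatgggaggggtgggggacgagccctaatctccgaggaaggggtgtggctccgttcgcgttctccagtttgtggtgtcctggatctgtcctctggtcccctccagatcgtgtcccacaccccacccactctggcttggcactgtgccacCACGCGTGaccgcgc
Gapdh, chr6:125165774-125166023, minus strand: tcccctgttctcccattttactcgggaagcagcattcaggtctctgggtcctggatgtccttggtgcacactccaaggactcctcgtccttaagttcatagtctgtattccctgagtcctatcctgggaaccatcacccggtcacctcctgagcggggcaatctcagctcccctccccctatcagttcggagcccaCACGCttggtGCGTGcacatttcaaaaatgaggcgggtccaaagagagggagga
Eno1, the promoter at chr4:150236947-150237196, plus strand: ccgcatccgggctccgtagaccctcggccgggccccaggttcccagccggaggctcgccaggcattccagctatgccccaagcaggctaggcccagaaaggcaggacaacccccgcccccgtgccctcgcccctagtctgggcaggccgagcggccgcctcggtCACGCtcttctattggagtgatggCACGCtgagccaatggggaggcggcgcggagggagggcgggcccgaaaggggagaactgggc
Ldha, the promoter at chr7:46845554-46845803, plus strand: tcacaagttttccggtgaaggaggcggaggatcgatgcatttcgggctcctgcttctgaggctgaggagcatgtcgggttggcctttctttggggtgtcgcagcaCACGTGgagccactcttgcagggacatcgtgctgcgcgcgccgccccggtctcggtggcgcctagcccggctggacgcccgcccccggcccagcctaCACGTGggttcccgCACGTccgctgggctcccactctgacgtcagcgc

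The *Ldha* promoter carried 5 matches to ACGTG, more than any other of the 14. It held 2 copies of the E-box CACGTG, which MYC and USF factors bind and which 6.02% of all promoters carried, and each E-box counts as 2 overlapping matches. The printed *Hk1* promoter held 3 matches to GCGTG, of which a pair overlap in the run CACGCGTG, and its other promoter held none. *Gapdh*, *Eno1* and *Slc2a1* held 2 each in the promoters printed. None of the 14 carried TATAAA, which 12.4% of all promoters did. A match is a description of the letters and was not tested as a binding site. In the promoters printed, those of *Hk1*, *Gapdh* and *Eno1* held GCGTG only, that of *Ldha* ACGTG only and that of *Slc2a1* 1 of each. The promoters not printed did not all divide by outcome in this way. That of *Pfkp* and the other of *Ldha*, genes that did not pass, held GCGTG only. A promoter of *Pkm*, which fell, held ACGTG only, and its other held none. Those of *Hk2* and *Pgk1*, which did not pass, held ACGTG only, and the other *Eno1* promoters GCGTG only.

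Glucose uptake comes first. *Slc2a1* (chr4:119108745-119137330), which encodes GLUT1, the main glucose transporter of keratinocytes, stood at 63.0, 91.8, 73.4 and 60.7 CPM in the ft/ft libraries and at 83.0, 100.2, 70.6 and 91.5 CPM in those labelled ft/ftMyD88-/-. The groups overlapped through ft/ft replicate 2, the highest of its group, and ft/ftMyD88-/- replicate 3, the lowest of its own. The log2 fold change was 0.26 (SE 0.142, 95% interval -0.09 to 0.61, edgeR adjusted p = 0.213) and did not pass. Without ft/ft replicate 2 the same test passed, at a log2 fold change of 0.40 (edgeR adjusted p = 0.0437), so 1 library decided this call.

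The other transporters on a list of glucose carriers went lower where they passed. *Slc2a4*, the insulin-responsive GLUT4 of muscle and fat, fell by 0.66 on the log2 scale (SE 0.164, edgeR adjusted p = 0.0149), from 44.6 to 63.6 CPM in ft/ft to 27.9 to 46.1 CPM, a slight overlap, and lost that call under scaling by library size alone (edgeR adjusted p = 0.0644). *Slc2a8*, an intracellular transporter, fell by 0.64 (SE 0.101, edgeR adjusted p = 0.00114) and *Slc2a12* by 1.22 (SE 0.198, edgeR adjusted p = 0.00183), both without overlap. *Slc2a3*, the high-affinity GLUT3, was at 2.87 to 4.23 CPM in all 8 libraries with a log2 fold change of 0.23 (edgeR adjusted p = 0.379). Among the reads of *Slc2a1*, *Slc2a3* and *Slc2a4*, *Slc2a1* held 55.6% ± 7.68 in ft/ft and 69.5% ± 7.45 in the libraries labelled ft/ftMyD88-/- (SD, n = 4 each), a difference of 13.9 percentage points that did not pass a two-sided exact permutation test (p = 0.0571, Benjamini-Hochberg adjusted over 6 shares 0.0686).

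Hexokinase, the trapping step, split by isoform. *Hk1* (chr10:62268855-62379920), the broadly expressed hexokinase, stood at 182, 224, 201 and 185 CPM in ft/ft and at 138, 145, 127 and 125 CPM in the libraries labelled ft/ftMyD88-/-. Every library of the second group lay below every ft/ft library. *Hk1* fell by 0.57 on the log2 scale (SE 0.0936, edgeR adjusted p = 0.00143), or by 32.5%. *Hk2* (chr6:82725025-82774454), the inducible form of growing cells, muscle and fat, ran from 80.8 to 104.7 CPM in ft/ft libraries and from 74.5 to 91.6 CPM, with a log2 fold change of -0.11 (SE 0.104, 95% interval -0.36 to 0.14, edgeR adjusted p = 0.48). The part of *Hk2* in the reads of both was 31.7% ± 2.07 in ft/ft and 38.9% ± 1.85 in the libraries labelled ft/ftMyD88-/-, a difference of 7.21 points with no overlap (two-sided exact permutation test, p = 0.0286, adjusted 0.0429). The value 0.0286 is the smallest that 4 libraries against 4 can give. *Hk3*, the hexokinase of myeloid cells, was at 2.27 to 2.40 CPM in ft/ft and 2.24 to 4.85 CPM (log2 fold change 0.56, edgeR adjusted p = 0.0857). The minor form *Hkdc1* (-1.90, edgeR adjusted p = 0.0768) did not pass either. For *Hk3* and *Hkdc1*, 1 library decided the call. *Hk3* passed without ft/ftMyD88-/- replicate 1 (0.73, edgeR adjusted p = 0.0221) and *Hkdc1* without ft/ftMyD88-/- replicate 2 (-3.24, edgeR adjusted p = 0.0185).

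At phosphofructokinase, the committed step, *Pfkp* (chr13:6579874-6649060), the platelet form also found in epithelia, was at 93.5, 121, 108 and 97.4 CPM in ft/ft and at 111, 108, 105 and 113 CPM. All 4 libraries labelled ft/ftMyD88-/- lay inside the ft/ft range. The log2 fold change was 0.06 (SE 0.0929, 95% interval -0.17 to 0.29, edgeR adjusted p = 0.694), and that of the liver form *Pfkl* was -0.12 (SE 0.11, edgeR adjusted p = 0.468). The muscle form *Pfkm* instead went from 371, 371, 430.5 and 470.4 CPM to 155, 186, 251 and 178 CPM without overlap, and fell by 1.09 on the log2 scale (SE 0.143, edgeR adjusted p = 3.95e-04). With it, *Pfkp* made up 17.0% ± 2.01 of the reads of the 3 forms in ft/ft and 27.7% ± 2.87 in the libraries labelled ft/ftMyD88-/-, a difference of 10.7 points with no library shared between the ranges (exact permutation test, two-sided, p = 0.0286, adjusted 0.0429).

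The steps between phosphofructokinase and GAPDH are not among the 10 genes but were on the list of other glycolysis enzymes. The isomerase *Gpi1*, which acts just before phosphofructokinase, fell by 0.44 on the log2 scale (SE 0.086, edgeR adjusted p = 0.00367). *Aldoa*, the aldolase of muscle and most tissues, went from 2135 to 2441 CPM in ft/ft to 1286 to 1497 CPM and fell by 0.74 (SE 0.0971, edgeR adjusted p = 4.00e-04). *Aldoc*, the brain form, fell by 0.63 (SE 0.11, edgeR adjusted p = 0.00186) at 13.8 to 26.9 CPM over all libraries. *Tpi1*, which interconverts the triose phosphates, fell by 0.34 (SE 0.094, edgeR adjusted p = 0.0213), and lost that call without ft/ft replicate 4 (edgeR adjusted p = 0.0715) or without ft/ftMyD88-/- replicate 1 (0.0639).

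*Gapdh* (chr6:125161852-125166467), whose enzyme yields NADH and which is widely used as a reference gene, stood at 1078, 1101, 1111 and 1212 CPM in ft/ft and at 735, 882, 815 and 795 CPM in the libraries labelled ft/ftMyD88-/-. The highest library of the second group was well below the lowest of the first. *Gapdh* fell by 0.48 on the log2 scale (SE 0.094, edgeR adjusted p = 0.00373), or by 28.3%, and the fall passed under each other scaling, filter, tool and left-out library and with the replicate block (adjusted p of at most 0.0318). It is smaller than the minimum absolute log2 fold change of 1 that was also tried. The testis form *Gapdhs* did not pass (log2 fold change 0.72, edgeR adjusted p = 0.212). *Pgk1* (chrX:106187100-106203699), which makes the first ATP of the pathway, was at 397, 422, 392 and 385 CPM in ft/ft and at 356, 406, 339 and 433 CPM. The groups overlapped, and the libraries labelled ft/ftMyD88-/- were the more spread. Its log2 fold change was -0.06 (SE 0.0972, 95% interval -0.30 to 0.18, edgeR adjusted p = 0.71), with a positive sign under scaling by library size alone (0.12).

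The mutase step showed opposite directions. *Pgam1*, the non-muscle phosphoglycerate mutase, rose from 112, 124, 119 and 111 CPM in ft/ft to 148, 161, 135 and 164 CPM, the only enzyme of this list that did (log2 fold change 0.39, SE 0.0885, edgeR adjusted p = 0.00857). *Pgam2*, the muscle form, went from 216, 173, 194 and 233 CPM to 85.8, 124, 138 and 129 CPM and fell by 0.77 (SE 0.144, edgeR adjusted p = 0.00293). Neither form overlapped between the groups. *Bpgm*, the related enzyme of red cells, had a log2 fold change of 0.37 (edgeR adjusted p = 0.0675).

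Enolase was the step with the widest differences. *Eno1* (chr4:150236708-150248879), the ubiquitous enolase, stood at 446, 574, 505 and 437 CPM in ft/ft and at 312, 328, 285 and 347 CPM in the libraries labelled ft/ftMyD88-/-. The groups lay apart, and *Eno1* fell by 0.63 on the log2 scale (SE 0.108, edgeR adjusted p = 0.00188), or by 35.2%. *Eno1b* (chr18:48045335-48048379), annotated in GENCODE M21 as a retrogene, a copy of *Eno1* that arose from its mRNA, took 17, 29, 18 and 14 counts from the ft/ft libraries and 1632, 2051, 1905 and 1184 from the libraries labelled ft/ftMyD88-/-. On the CPM scale *Eno1b* stood at 0.831 ± 0.243 in ft/ft and at 71.0 ± 4.44 under the other label (SD, n = 4 each). *Eno1b* was 85.5-fold higher in the libraries labelled ft/ftMyD88-/- (log2 fold change 6.42, SE 0.167, edgeR adjusted p = 2.94e-10), and the spread within each label was small beside that difference.

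Transcripts of the pair aligned over 1652 bases with 9 differences, an identity of 99.5%. Of the windows of 50 bases in the *Eno1* transcript, the read length of the study, 70.5% also occurred in *Eno1b*, and 75.3% of those of *Eno1b* occurred in *Eno1*. A read from such a window cannot be assigned to either gene by its sequence, so the single counts of both are uncertain. The counts do not show whether such reads were left out, and a sum of both rows would then miss them too. *Eno1b* took 0.167% ± 0.0329 of the reads of the pair in ft/ft and 18.3% ± 0.71 in the libraries labelled ft/ftMyD88-/- (SD, n = 4 each; difference 18.1 points, two-sided exact permutation test, p = 0.0286, adjusted 0.0429).

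Read as 1 gene, *Eno1* and *Eno1b* summed to 447, 575, 506 and 438 CPM in ft/ft and to 383, 403, 350.1 and 419.5 CPM in the libraries labelled ft/ftMyD88-/-. The highest library of the second group came close to the lowest of the first, without overlap. The sum fell by 0.34 on the log2 scale (SE 0.107, 95% interval -0.60 to -0.07, edgeR adjusted p = 0.04), a smaller difference than that of *Eno1* alone. This call was lost in 6 of the 8 fits that left out 1 library, all but those without ft/ft replicate 1 or 4, with adjusted p-values up to 0.1075, with scaling by library size alone (edgeR adjusted p = 0.266), and with the replicate number as a block (edgeR adjusted p = 0.0736).

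**Figure D2:**
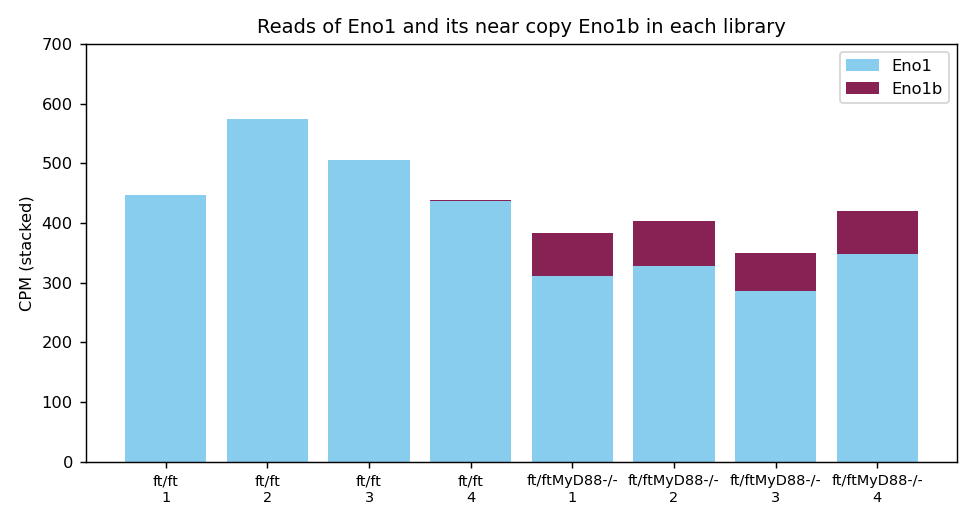
Stacked CPM (linear axis from 0) of *Eno1* and its near copy *Eno1b* in each of the 8 libraries. The *Eno1b* part is hardly visible in ft/ft, at no more than 1.06 CPM, and is 64.8 to 75.4 CPM in the libraries labelled ft/ftMyD88-/-, where the stack reaches 350.1 to 419.5 CPM against 438 to 575 in ft/ft.

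Of the other enolases, *Eno3*, the muscle form, went from 630.4, 538, 621 and 711 CPM in ft/ft to 251, 377, 458 and 387 CPM and fell by 0.76 on the log2 scale (SE 0.16, edgeR adjusted p = 0.00577). *Eno2*, the neuronal form, was at 3.90 to 5.95 CPM in all libraries (log2 fold change 0.03, edgeR adjusted p = 0.909). *Eno3* took 55.7% ± 5.75 of the reads of the 4 enolases in ft/ft and 47.9% ± 6.91 in the libraries labelled ft/ftMyD88-/-, which overlapped (two-sided exact permutation test, p = 0.143, adjusted 0.143).

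*Pkm* (chr9:59656576-59679372), the pyruvate kinase gene of nearly all tissues but liver and red cells, stood at 883, 971, 986 and 936 CPM in ft/ft and at 633, 788, 681 and 739.9 CPM in the libraries labelled ft/ftMyD88-/-. The groups did not overlap, and *Pkm* fell by 0.41 on the log2 scale (SE 0.0974, edgeR adjusted p = 0.0101), or by 24.7%. Scaled by library size alone, the log2 fold change was -0.23 and the call was lost (edgeR adjusted p = 0.0872). Its splice forms PKM1 and PKM2 are not separated by a count of the whole gene.

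At the last step, *Ldha* (chr7:46842274-46855627), the lactate dehydrogenase subunit of glycolytic tissues, was at 989, 881, 927 and 908 CPM in ft/ft and at 712, 936, 771 and 931 CPM. Replicates 2 and 4 labelled ft/ftMyD88-/- lay within the ft/ft range and replicates 1 and 3 below it. The log2 fold change was -0.15 (SE 0.109, 95% interval -0.41 to 0.12, edgeR adjusted p = 0.368). *Ldhb*, the heart-type subunit, went from 302, 314, 268 and 288 CPM to 168, 194, 171 and 173 CPM without overlap and fell by 0.73 (SE 0.0879, edgeR adjusted p = 2.27e-04). *Ldha* made up 75.9% ± 1.65 of the reads of both subunits in ft/ft and 82.5% ± 1.45 in the libraries labelled ft/ftMyD88-/- (difference 6.52 points, no overlap, two-sided exact permutation test, p = 0.0286, adjusted 0.0429).

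**Figure D3:**
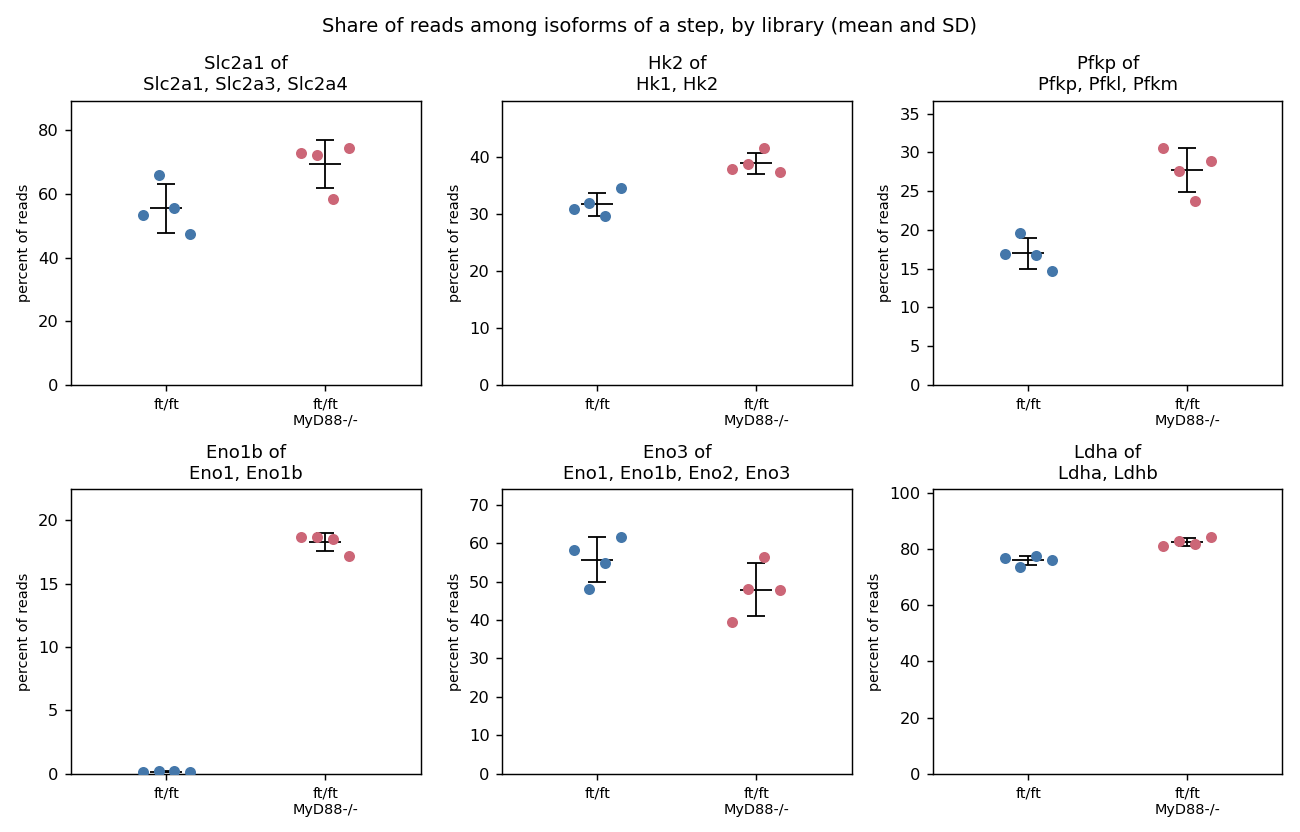
Percent of reads that 1 gene took among the isoforms of its step, by library (points), with the mean and SD of 4 libraries of each label. The shares of *Hk2*, *Pfkp*, *Eno1b* and *Ldha* are higher in the libraries labelled ft/ftMyD88-/- without overlap, whereas those of *Slc2a1* and *Eno3* overlap.

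Along the pathway, 21 of the 25 other glycolysis genes listed were tested, and 1 rose and 11 fell, with a median log2 fold change of -0.44. Over all genes tested the median was 0.01, with 10.9% higher and 12.3% lower. *Pgk2*, *Pklr* and *Ldhc* were not among the rows used. Of the 10 genes described, the difference of each call kept its sign under each scaling run, whereas the values near 0 of *Hk2*, *Pgk1* and *Ldha* turned positive under library size alone (0.07, 0.12 and 0.03), a scaling that moved the median of all genes tested by 0.18.

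**Figure D4:**
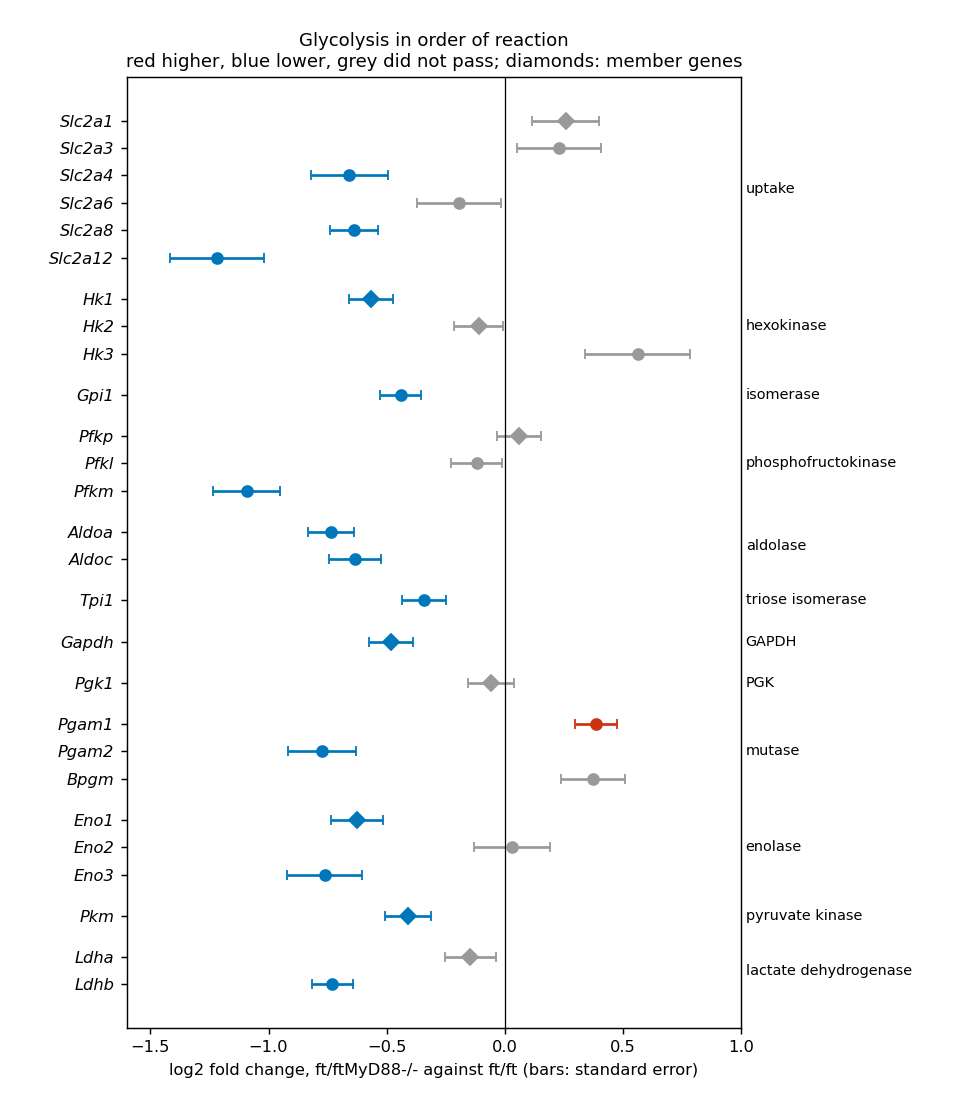
Log2 fold change (libraries labelled ft/ftMyD88-/- against ft/ft, bars: standard error) of glycolysis genes in the order of reactions, with diamonds for the genes described here. *Eno1b* (6.42) and a few low-level genes such as *Hkdc1* and *Gapdhs* are left out. *Pgam1* is the single red point, at 0.39, and *Slc2a12* (-1.22) and *Pfkm* (-1.09) lie farthest to the left.

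Several of the isoforms that fell are those of skeletal muscle, and muscle markers moved with them. Where 12.3% of all genes tested fell, 10 of 11 markers of skeletal muscle did, with a median log2 fold change of -1.10. Their summed level was 9907, 10100, 11280 and 13540 CPM in ft/ft and 3774, 5595, 7211 and 5026 CPM in the libraries labelled ft/ftMyD88-/-. Within the libraries labelled ft/ftMyD88-/-, *Pfkm*, *Pgam2* and *Eno3* were each lowest in replicate 1 and highest in replicate 3, as the marker sum was, while *Gapdh* and *Ldhb* were lowest in replicate 1 and highest in replicate 2, and *Hk1* lowest in replicate 4 and highest in replicate 2. Within ft/ft, where the sum was lowest in replicate 1 and highest in replicate 4, *Gapdh* had the same lowest and highest library. *Pfkm*, *Pgam2* and *Eno3* were highest in replicate 4 too but lowest in replicate 2, *Pfkm* barely so (370.6 CPM, against 370.9 in replicate 1). The marker sums of ft/ft replicates 1 and 2 were close (9907 and 10100 CPM). *Myh1*, *Myh2* and *Myh4* were lowest in replicate 1, and the other muscle markers in replicate 2. *Hk1* was lowest in replicate 1 and highest in replicate 2, and *Ldhb* lowest in replicate 3 and highest in replicate 2. The part of muscle in the fall of *Gapdh*, *Hk1*, *Eno1* or *Pkm* was not tested.

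**Figure D5:**
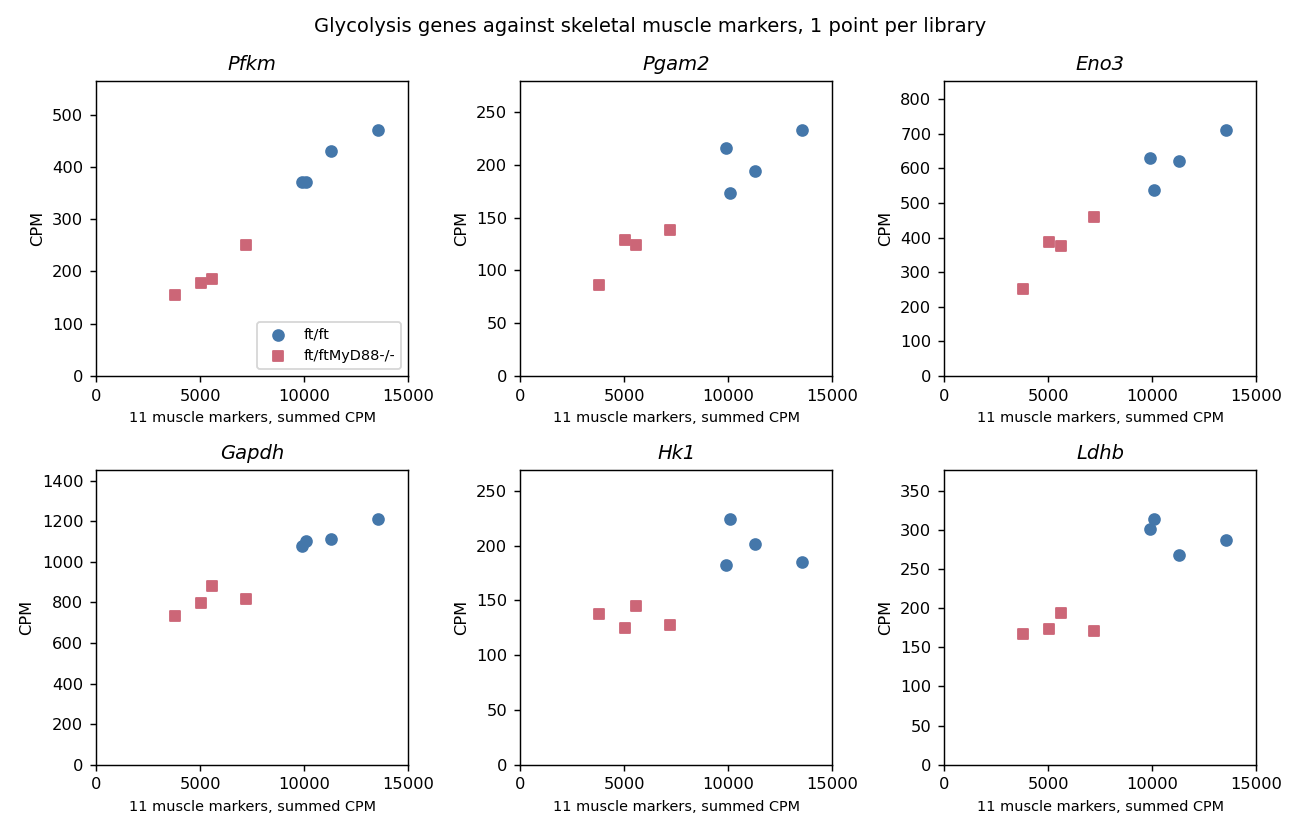
CPM of 6 glycolysis genes against the summed CPM of 11 skeletal muscle markers, 1 point per library, on linear axes from 0. The markers sum to 9907 to 13540 CPM in ft/ft (circles) and 3774 to 7211 in the libraries labelled ft/ftMyD88-/- (squares), and each of the 6 genes is higher in every ft/ft library.

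Epidermal markers also differed between the labels, where 10.9% of all genes tested rose and 12.3% fell. Of 5 markers of differentiated keratinocytes, 3 fell and 2 did not pass, with a sum of 16160 to 21100 CPM in ft/ft against 11610 to 14430 CPM in the libraries labelled ft/ftMyD88-/-. Of 5 basal keratinocyte markers, 3 fell (9533 to 12230 CPM against 8000 to 9848 CPM). The abundant basal marker *Krt14* was among those that did not pass (log2 fold change 0.05, edgeR adjusted p = 0.839). Of 5 markers of hyperproliferative keratinocytes, 1 rose and 4 did not pass (2794 to 3605 against 3283 to 5627 CPM). *Krt16*, among these 4, missed the threshold narrowly (log2 fold change 2.58, edgeR adjusted p = 0.053). How much these keratinocytes contributed to the 10 genes was not tested.

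Beyond the enzymes, the regulators of glycolytic flux were divided. Of 12 tested, 1 rose and 5 fell, where 10.9% of all genes tested rose and 12.3% fell. All 4 pyruvate dehydrogenase kinases, which hold pyruvate back from oxidation by inhibiting pyruvate dehydrogenase in the mitochondria, fell. *Pdk4* went from 68.7 to 99.8 CPM in ft/ft to 31.6 to 54.9 CPM (log2 fold change -1.09, SE 0.177, edgeR adjusted p = 0.00204), and *Pdk2* from 81.5 to 95.9 CPM to 36.3 to 53.5 CPM (-1.06, SE 0.124, edgeR adjusted p = 1.94e-04). *Pdk3* (-0.47, edgeR adjusted p = 0.00416) and *Pdk1* (-0.34, edgeR adjusted p = 0.0136) fell by less. *Txnip*, an inhibitor of glucose uptake, fell by 0.54 (SE 0.121, edgeR adjusted p = 0.0081). Scaled by library size alone, *Pdk1* (-0.16, edgeR adjusted p = 0.185) and *Txnip* (-0.35, edgeR adjusted p = 0.0553) lost their calls, and 3 of the 12 regulators were called higher and 3 lower. *Hif1a*, the inducible subunit of HIF1, which is controlled mostly at the protein level, rose from 85.2, 73.6, 80.1 and 77.1 CPM in ft/ft to 109, 114, 95.6 and 114 CPM without overlap (log2 fold change 0.45, SE 0.0873, edgeR adjusted p = 0.00339).

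Of 10 genes that respond to hypoxia outside glycolysis, 2 rose, 1 fell and 7 did not pass, with a median log2 fold change of 0.01. Over all genes tested, 10.9% rose and 12.3% fell. The angiogenic factor *Vegfa* (0.51, SE 0.101, edgeR adjusted p = 0.00399) and the vasodilator peptide *Adm* (0.64, SE 0.146, edgeR adjusted p = 0.0083) were the increases and *Ndrg1* the decrease (-0.43, SE 0.0829, edgeR adjusted p = 0.00368). Of 10 genes for the exits of lactate and pyruvate, *Slc16a7*, a monocarboxylate transporter, rose (0.95, SE 0.21, edgeR adjusted p = 0.00884), *Pdha1*, a subunit of pyruvate dehydrogenase, fell by 0.32 (edgeR adjusted p = 0.0224), and 8 did not pass. *Pdha1* lost its call in 4 of the 8 fits that left out 1 library, those without ft/ft replicate 3 or 4 or ft/ftMyD88-/- replicate 1 or 4, with adjusted p-values up to 0.0677. The lactate exporters *Slc16a1* (-0.05, edgeR adjusted p = 0.727) and *Slc16a3* (0.07, edgeR adjusted p = 0.699) were among the latter.

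Among the branches, the pentose phosphate pathway draws glucose 6-phosphate off for NADPH and ribose. Of its 7 genes, 1 rose (*Rpe*, log2 fold change 0.34, edgeR adjusted p = 0.0206) and 6 did not pass, a share near the 10.9% higher over all genes tested, and *Rpe* lost its call without ft/ft replicate 2 (edgeR adjusted p = 0.0504), ft/ft replicate 4 (0.0661) or ft/ftMyD88-/- replicate 4 (0.0502). Of 9 enzymes of glycogen, 7 fell and 2 did not pass, with a median of -0.65, where 12.3% of all genes tested fell. *Pygm*, the glycogen phosphorylase of muscle, went from 379, 387, 432 and 495 CPM in ft/ft to 131, 189, 261 and 173 CPM (log2 fold change -1.16, SE 0.183, edgeR adjusted p = 0.00163). The kinase subunits *Phkg1* (-1.02, edgeR adjusted p = 0.00322) and *Phka1* (-0.62, edgeR adjusted p = 0.0309) and the synthase of muscle and most tissues, *Gys1* (-0.80, edgeR adjusted p = 8.75e-04), fell as well. So did the forms of other tissues, the liver phosphorylase *Pygl* (-0.65, edgeR adjusted p = 0.0241) and the brain phosphorylase *Pygb* (-0.60, edgeR adjusted p = 6.57e-04). *Phka1* kept its call in 3 of the 8 fits that left out 1 library, those without ft/ft replicate 1 or ft/ftMyD88-/- replicate 2 or 3, with adjusted p-values up to 0.0959 in the others. *Pygl* kept it in 5, all but those without ft/ft replicate 1 (edgeR adjusted p = 0.0533), ft/ft replicate 4 (0.0652) or ft/ftMyD88-/- replicate 2 (0.0564). The muscle marker sum was lower in the same libraries, and its part in the glycogen enzymes was not tested. Over the 6 lists together, 6 of 69 genes tested rose, 25 fell and 38 did not pass.

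Other genes of the pathway hold sequence in common with near copies, which bears on single counts. Of the 50-base windows of the *Gapdh* transcript, 82.5% also occurred in transcripts of other annotated genes, 222 in number, as did 68.0% of those of *Pgk1*, 34.4% of *Pkm*, 17.1% of *Pfkp* (through the overlapping gene *Pitrm1*), 16.7% of *Ldha*, 2.55% of *Hk1* and 1.74% of *Slc2a1*. *Hk2* had none. Of the genes sharing windows that had counts in the table, several had few, with at most 2 counts of *Gapdh-ps15*, 8 of *Pgk1-rs7*, 3 of *Ldha-ps2* and 10 of *Hk1os* in any library. In contrast, *Pitrm1* had 904 to 2254 counts and *Peli2*, which shares 84 windows with *Gapdh*, had 315 to 952. Reads of shared windows may be missing from both rows, so few counts of a copy do not show that its partner's count was unaffected.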

How the data were processed

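Per the methods of the study, periocular skin RNA was sequenced as single-end reads of 50 bases from polyA-selected TruSeq libraries, aligned to GRCm38.p6 (HISAT, tophat2) and counted per gene (HTSeq defaults). GEO's labels instead give total RNA, a fixed-tissue protocol and Cell Ranger with GRCm38, a difference that could not be settled. Tool versions, annotation release and strand setting are not given in the sources used here. The authors deposited raw counts per gene for 21247 genes, without normalization, and no per-sample column was left unused. Libraries were grouped by their labels. The methods of the study name no molecular identifiers, and the counts were treated as counts of reads.

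The 20454 genes whose counts summed to 10 or more were fitted in R 4.3.3 with edgeR 4.0.16 (robust quasi-likelihood, TMM factors 0.922 to 1.09, no covariate, two-sided, Benjamini-Hochberg adjustment over all genes tested, threshold 0.05). Values per library are CPM on the TMM-scaled library size, and standard errors follow from the log2 fold change and the F value. The floor of 3 counts was 0.102 to 0.183 CPM and covers counting error only. The biological coefficient of variation was 0.182. Read shares among isoforms were compared by exact permutation tests in SciPy 1.17.1 and are shares of reads, not of molecules. Windows of 50 bases and alignments (Biopython 1.88) used the longest protein-coding transcript of each gene in GENCODE M21, and promoters came from RefSeq, trimmed to the 250 bases before the start. No replicate pair was a duplicate (chi-square per degree of freedom 15.1 to 65.9). The fit was tested on simulated data.

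The genes named were the 10 members, every pathway-list gene that passed, and the isoforms of a member's reaction, a few of which are not reported here. Members and lists (other glycolysis enzymes, regulators, exits, pentose phosphate pathway, glycogen, hypoxia-responsive genes, and 13 marker lists) were chosen with earlier results of these data known, so no list was tested as a set. Alternatives were RLE or library-size scaling, filterByExpr or no filter, DESeq2 1.42.0, limma 3.58.1 voom, a minimum fold, the replicate number as a block, and each library left out.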

Additional observations from a re-analysis of the deposited data

Results flagged for a closer look

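In 4 of 94 groups of 4 libraries examined, 1 library stood farther from the others than Dixon's limit allows, and chance alone flags about 1 group in 20. *Slc2a8* was at 12.1 CPM in ft/ftMyD88-/- replicate 4 and at no less than 13.7 in the other 3 libraries of that label. *Gpi1* was at 239.7 CPM in ft/ftMyD88-/- replicate 2 and at 214 to 217 in the others. The read share of *Slc2a1* among *Slc2a1*, *Slc2a3* and *Slc2a4* was 58.4% in ft/ftMyD88-/- replicate 3 and 72.3% to 74.4% in the others, and that replicate had the highest muscle marker sum of its label, at 7211 CPM. The read share of *Eno1b* in the pair with *Eno1* was 17.2% in ft/ftMyD88-/- replicate 4 and 18.5% to 18.7% in the others.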

How the results depend on the processing

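*Hk1*, *Gapdh*, *Eno1* and *Eno1b* kept their direction and passed under the 15 alternatives of scaling, filter, tool, block or left-out library. Scaling by library size alone changed most. It called 4638 genes higher and 1326 lower, 2 of the 10 genes higher (*Slc2a1* joined *Eno1b*, log2 fold change 0.43, edgeR adjusted p = 0.0376) and 10 pathway genes higher, left the sum of *Eno1* and *Eno1b* at -0.16 (adjusted p = 0.266), and reversed the uncalled values of *Hk2* (0.068), *Pgk1* (0.12), *Ldha* (0.031) and *Pfkl* (0.056). *Pkm* (adjusted p = 0.0872), *Slc2a4* (0.0644), *Pdk1* (0.185), *Txnip* (0.0553), *Tpi1* (0.198), *Pdha1* (0.286), *Phka1* (0.117) and *Pygl* (0.0869) lost their calls, and *Hk3* gained one (0.0288). A minimum absolute log2 fold change of 1 left 752 genes higher and 520 lower, and 0 of the 10 lower, so *Hk1*, *Gapdh* and *Eno1* did not meet it. Replicate numbers did not pair the libraries, with correlations of deviations from -0.36 to 0.09 and 1 of 4 numbers best matched to itself. With the number as a block, the enolase sum was at -0.33 (adjusted p = 0.0736) and no call of the 10 genes changed. Leaving out 1 library gave 1464 to 2260 genes higher (lowest without ft/ft replicate 4), 1 to 2 of the 10 genes higher, 5 to 8 pathway genes higher, 21 to 27 lower, and an enolase sum from -0.39 to -0.25. *Pgk1* ran from -0.11 to 0.011 and *Eno2* from -0.093 to 0.12, with the sign turned only without ft/ftMyD88-/- replicate 3. Calls of *Pdha1*, *Phka1*, *Pygl*, *Rpe* and *Tpi1* were each lost in some of these fits. Read shares moved by less than their spread under every alternative. Causes were not tested. Every library held 14 or more counts of each of the 10 genes, the fewest being those of *Eno1b* in ft/ft.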

Other observations

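Markers of some other cells in the same libraries also differed by label, where 10.9% of all genes tested rose and 12.3% fell. All 6 proliferation genes rose, from a summed 142 to 220 CPM in ft/ft to 264.5 to 338 CPM in the libraries labelled ft/ftMyD88-/-, and all 5 T cell genes rose, from 11.7 to 15.8 to 19.6 to 27.0 CPM. Of 3 neutrophil genes tested 1 rose, as did 1 of 5 macrophage genes. The macrophage sums overlapped, at 237 to 328 CPM in ft/ft and 268.5 to 369 CPM in the libraries labelled ft/ftMyD88-/-. Red cell genes were uneven (86.6 to 637 CPM in ft/ft, 65.0 to 129 in the other label), and 2 of 5 fell. Of the rest, 4 of 6 sebocyte genes, 2 of 3 photoreceptor genes (all libraries at or under 4.24 CPM) and 1 of 4 endothelial genes fell, and none of 5 adipocyte genes passed. The part of these cells in the glycolysis genes was not tested.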
